A study of Drosophila melanogaster with 14 samples.

Results

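The step from the first to the second sampled stage of Drosophila melanogaster embryonic development was described from 4 small RNA libraries of the 14 in the time course. Stage 1 was labelled 160 min (2 libraries) and stage 2 was labelled 300 min (2 libraries), and the libraries were chosen by these labels alone. All were made from total RNA of embryos, with no other treatment, genotype or strain in the labels, which refer to an earlier study for the culture. The labels do not say from what point the minutes were counted, do not use the words blastoderm or germ band, and give no word on whether both libraries of 1 stage came from separate collections. The p-values below rest on the spread between libraries of 1 stage, taken over all 14 libraries in the main fit. That spread may therefore be technical. The unit is the number of reads assigned to a mature miRNA arm, that is, the strand from the 5′ (5p) or 3′ (3p) side of the precursor's hairpin.

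A miRNA is cut from a hairpin, and usually 1 strand (the guide) is kept in an Argonaute protein while the other (the passenger) is degraded. Guides pair with messenger RNAs through their seed, bases 2 to 8, and lower the output of those messages. The early fly embryo runs on maternal RNA until its own genome is switched on in the blastoderm. The miR-309 cluster, which is transcribed at that switch, helps to clear maternal messages. Gastrulation and germ band extension follow, when the primordia of gut, nervous system and muscle are set apart.

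Total counts of the 4 libraries ran from 25271 to 35682. Of 466 arms listed, 139 had a count at either stage and 68 had a count in all 4 libraries. The 68 arms held 99.4% of the counts. The labels' stages were set against markers of early and late embryos. The miR-309 cluster took 69.8% and 67.8% of counts at stage 1. The let-7 complex, known from late development, had 3, 4, 2 and 2 counts in stage 1 replicates 1 and 2 and stage 2 replicates 1 and 2, which is the order of every set of 4 values below. Its let-7-5p arm had at most 4 counts in any later library too, so few let-7 counts cannot tell early from late libraries here. The miR-277, miR-34 and miR-317 cluster had 1 count in the 4 libraries together, and so had the ovary list of miR-989, miR-318 and miR-994. In whole embryos, fewer cells that make an arm and less of the arm per cell cannot be told apart.

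Both profiles were dominated by miR-286-3p, which belongs to the miR-309 cluster, with 65.3%, 63.7%, 57.8% and 57.3% of counts. The stage 2 libraries lay below both stage 1 libraries. miR-92b-3p, made from the 3′ UTR of jigr1 and known to limit the muscle factor Mef2, came second at both stages with 10.6%, 10.5%, 11.7% and 11.9%. The next places at stage 1 were held by miR-311-3p (3.28% ± 0.261, SD, n = 2), miR-312-3p (3.16% ± 0.242), miR-10-5p (3.02% ± 0.590), miR-5-5p (1.97% ± 0.0622), bantam-3p (1.67% ± 0.133), miR-6-3p (1.43% ± 0.0292), miR-9c-5p (1.36% ± 0.117) and miR-995-3p (1.13% ± 0.0223). At stage 2, miR-10-5p of the Hox clusters had moved to rank 3 with 4.57% ± 0.0437 and miR-312-3p kept the fourth with 2.78% ± 0.182. miR-263a-5p took the fifth place with 2.27% ± 0.150, from rank 17. miR-184-3p, known from the female germ line and early patterning, came seventh (2.05% ± 0.0639), and miR-11-3p, a repressor of pro-apoptotic genes made from an intron of E2f1, came ninth (1.70% ± 0.00706). miR-311-3p had gone from rank 3 to rank 10.

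**Figure D1:**
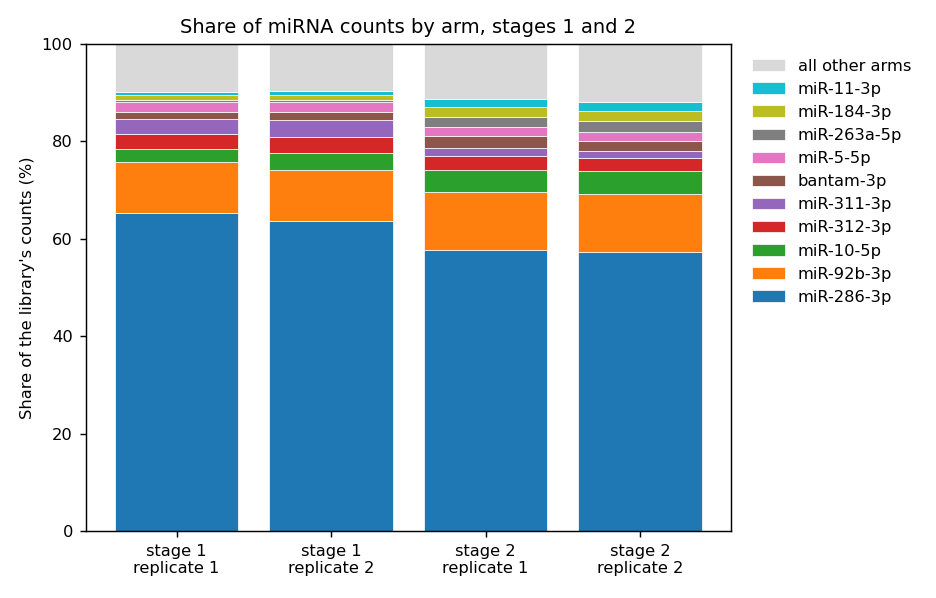
Share of each library's counts (%, stacked to 100) held by the 10 arms with the highest mean share at stage 2 and by all other arms, for the 4 libraries. miR-286-3p is the lowest block, at 65.3% and 63.7% in stage 1 and 57.8% and 57.3% in stage 2, and the block of miR-263a-5p widens from 0.328% and 0.372% to 2.17% and 2.38%.

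The profile was less concentrated at stage 2. The top 5 arms held 84.5%, 84.3%, 79.5% and 78.9% of counts. The effective number of arms, the exponential of the Shannon entropy of the shares, was 4.94, 5.24, 6.62 and 6.81. Arms at 1% or more numbered 11 in each stage 1 library and 14 in each stage 2 library, and arms with any count 90 and 112. None of these measures overlapped between the stages, and with 2 libraries against 2 no exact permutation test could pass (the smallest two-sided p is 1 in 3). With miR-286-3p left out, the effective number was 15.6 ± 0.165 at stage 1 and 17.8 ± 0.385 at stage 2, again without overlap. The order of arms was alike within a stage (Spearman's rho across 62 arms with at least 20 counts over the 4 libraries together, 0.967 in each stage) and less so between stages (0.729 to 0.799). These correlations are across arms, which are not independent, and describe the libraries only.

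Between the stage means, 55 arms lost 10.96 percentage points of share in sum and 84 arms gained them. miR-286-3p lost 6.90 points and miR-311-3p lost 1.73. miR-263a-5p gained 1.92 points, miR-10-5p 1.56, miR-92b-3p 1.33, miR-184-3p 0.941 and miR-9a-5p 0.852. Shares of a library sum to a whole, so a share can move without a change of that arm. For example, miR-92b-3p had a higher share in both stage 2 libraries but a log2 fold change of -0.06 ± 0.312 (SE) on the TMM scale, which sets libraries against each other by a trimmed mean over arms.

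Which arms changed was asked with edgeR's quasi-likelihood test on the counts of 85 arms in all 14 libraries, with Benjamini-Hochberg adjustment over the 85. Stage 2 was higher for 13 arms (15.3% of those tested) and lower for 2 (2.35%), of 15 arms called (17.6%). The 2 libraries of each stage did not overlap in any of the 15. Without overlap on the TMM scale were 29 tested arms higher (34.1%) and 22 lower (25.9%), so lack of overlap alone was common. The 13 arms that rose held 0.877%, 1.12%, 4.77% and 4.82% of counts, and the 2 that fell 3.53%, 3.77%, 1.66% and 1.58%. Both the number and the balance of calls depended on the fit. DESeq2 size factors in edgeR gave 9 higher and 3 lower, library size alone 17 and 1, and the DESeq2 test 11 (12.9%) and 8 (9.41%). With stages 1 and 2 fitted alone, 53 arms were tested, of which 19 were higher (35.8%) and 15 lower (28.3%), 34 in all (64.2%). Replicates of stages 1 and 2 were closer to each other than those of later stages by chi-square per degree of freedom across arms. It was 3.06 and 2.10, against 11.5 to 128. This measure grows with depth, and later libraries reached 72507 counts. Stage 5, with 32538 and 31330 counts, had 11.5. The fit over all stages uses 1 estimate of the spread from early and later stages.

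**Figure D2:**
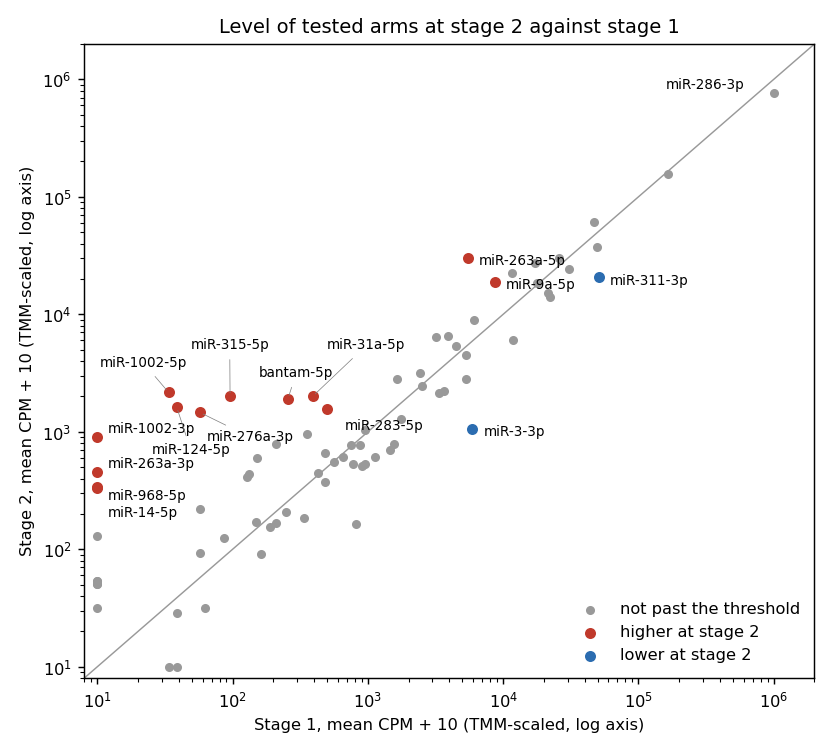
Mean level of the 85 tested arms at stage 2 (vertical) against stage 1 (horizontal), as TMM-scaled CPM plus 10 on log axes, with the line of equal level. The 13 arms higher at stage 2 lie above the line, most of them with few or no counts at stage 1, and miR-3-3p and miR-311-3p lie below it.

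Sensory organ miRNAs supplied the most abundant rise. miR-263a, also called bereft, protects the cells of sensory bristles from death in later stages of the fly. Its hairpin lies on dm6 chromosome 2L (11953410 to 11953503, minus strand) and overlaps no protein-coding gene of that strand. miR-263a-5p had 117, 94, 709 and 795 counts, or 0.328%, 0.372%, 2.17% and 2.38%. The stage 2 values lay far above both stage 1 values, and the log2 fold change was 2.47 ± 0.312 (edgeR adjusted p = 1.63e-05). It passed in all 11 alternative fits, with values from 2.04 to 2.70. The opposite strand, miR-263a-3p, had 0, 0, 12 and 10 counts. With 3 counts over both stage 1 libraries as the floor, it was 5.68-fold above that floor (edgeR adjusted p = 0.0212). Its call ended without stage 1 replicate 1 (adjusted p = 0.140), stage 1 replicate 2 (0.201) or stage 2 replicate 1 (0.0914), and with DESeq2 size factors (0.0611).

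miR-9a-5p, which limits the number of sensory organ precursors by way of senseless, had 170, 165, 489 and 447 counts, with a mean share of 0.565% ± 0.125 at stage 1 and 1.42% ± 0.111 at stage 2. Its log2 fold change of 1.12 ± 0.377 was close to the threshold (edgeR adjusted p = 0.0453). The call ended with any 1 of the 4 libraries left out (adjusted p from 0.176 to 0.468, values from 0.80 to 1.14). It ended too with DESeq2 size factors (0.67, adjusted p = 0.130), no filter (0.0632), a mean count of at least 50 (0.0619) and the DESeq2 test (0.0552). Of the 7 tested arms of the sensory list, 3 rose (against 15.3% of all 85) and 4 did not pass, with a median log2 fold change of 1.92 against 0.18 over the 78 tested arms that had a count at either stage. With arms at 0 in stage 1 set against the floor, and those at or under the floor left out, these medians were 1.52 (6 arms) and 0.08 (71 arms). All 7 values were positive, against 43 of the 78. But with DESeq2 size factors 2 of the 7 were negative, against 44 of the 78, and 1 arm passed. Among the 4, miR-279-3p (0.39 ± 0.493) and miR-996-3p (0.03 ± 0.583) come from neighbouring hairpins. The opposite strand miR-996-5p had 6, 2, 18 and 21 counts and 1.92 ± 0.751 (edgeR adjusted p = 0.0905). miR-263b-5p had 0, 0, 1 and 1 counts.

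In the nervous system list, 2 arms rose from at most 3 counts in a stage 1 library. miR-124 is the neuronal miRNA of animals. miR-124-5p had 0, 1, 41 and 39 counts, a ratio of 61.9 on the TMM scale with a 95% counting interval of 10.8 to 2.48e+03 (edgeR adjusted p = 0.000902). It passed in all 10 alternative fits that tested it. The 3p arm, the usual guide of miR-124, had 0, 0, 0 and 2 counts and was not tested. miR-315-5p, known to act on Wingless signalling through Axin and Notum, had 0, 3, 43 and 57 counts. Its ratio was 25.8 with an interval of 8.58 to 127 (edgeR adjusted p = 0.00183), and only without stage 1 replicate 1 did the call end (adjusted p = 0.0503). Of 4 tested arms of the list, these 2 rose (against 15.3% of all 85 tested), miR-1000-5p (0, 0, 2 and 0 counts) did not pass, and the other had no count at either stage. Their hairpins lie on 2L (mir-124, 17566370 to 17566469) and 3L (mir-315, 18860971 to 18861054), both on the plus strand.

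Of 11 tested arms of the epithelium and gut list, 3 rose and none fell with edgeR, against 15.3% higher and 2.35% lower of all 85. The DESeq2 test called 1 of the 11 lower, against 9.41% of all 85. The median log2 fold change was 0.28, became -0.16 with DESeq2 size factors, and was 0.64 over 10 arms with those at 0 treated as above. miR-276a-3p, known in the adult fly to act on a dopamine receptor in memory, had 2, 0, 30 and 43 counts. It was 28.3 times higher with an interval of 7.55 to 238 (edgeR adjusted p = 0.000115) and passed in all 11 alternative fits. Its near-identical relative miR-276b-3p had 1, 0, 0 and 0 counts, and how reads common to both were divided is not given. miR-31a-5p had 4, 10, 61 and 36 counts, a log2 fold change of 2.41 ± 0.508 (edgeR adjusted p = 0.00183), a call that ended when stage 1 replicate 1 (1.79, adjusted p = 0.0566) or stage 2 replicate 1 (1.75 and 0.0914) was left out. miR-14, a suppressor of cell death, rose in its 5p arm, with 0, 0, 8 and 8 counts. That was 4.13-fold above the floor (edgeR adjusted p = 0.0120). The call ended without stage 1 replicate 1, stage 1 replicate 2 or stage 2 replicate 1. The guide, miR-14-3p, had 87, 56, 43 and 70 counts and a log2 fold change of -0.71 ± 0.431, which did not pass (edgeR adjusted p = 0.333). miR-8-3p, a regulator of growth known from fat body and epithelia, had 68, 55, 129 and 191 counts, and its value of 1.00 ± 0.390 did not pass either (edgeR adjusted p = 0.0905).

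Neighbouring hairpins on chromosome 2L supplied 3 of the 13 rises. mir-1002 (13747609 to 13747697) and mir-968 (13747748 to 13747839) lie 50 bp apart on the minus strand and overlap no protein-coding gene there. miR-1002-5p had 1, 0, 41 and 68 counts, 84.4 times the stage 1 level with a counting interval of 14.8 to 3.36e+03 (edgeR adjusted p = 0.000115), and passed in all 11 alternative fits. Without stage 1 replicate 1, which held its single early count, it had no count at stage 1. miR-1002-3p had 0, 0, 24 and 20 counts and was 11.4-fold above the floor (edgeR adjusted p = 0.00319). That call ended at an adjusted p of 0.0503 without stage 1 replicate 1 and of 0.0678 without stage 1 replicate 2. miR-968-5p had 0, 0, 4 and 13 counts and was 4.39-fold above the floor (edgeR adjusted p = 0.0127). Its call ended without stage 1 replicate 1 (adjusted p = 0.0958), stage 1 replicate 2 (0.157) or stage 2 replicate 2 (0.170), the library that held 13 of its 17 counts. The 3p arm of mir-968 had 0, 0, 2 and 1 counts, no more than the floor of 3, and was not tested. The 3 tested arms of this pair of hairpins were all called higher, against 15.3% of all 85. They were also higher without overlap on the TMM scale, as were 34.1% of all tested arms. The pair was in none of the lists and was named here through its called arms. Its number of calls was therefore set by the choice and is no evidence about the pair.

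The other rises were of miR-283-5p and bantam-5p. The hairpins of miR-283 and miR-12 lie in an intron of Gmap (mir-283 at X, 15507956 to 15508055, plus strand). miR-283-5p had 11, 8, 37 and 41 counts and a log2 fold change of 1.67 ± 0.517 (edgeR adjusted p = 0.0286), which did not pass without any 1 of the 4 libraries (1.26 to 1.77, adjusted p from 0.131 to 0.335). It also missed the threshold with DESeq2 size factors (1.25, adjusted p = 0.0659), no filter (0.0785), a mean count of at least 50 (0.0855) and the DESeq2 test (0.0552), and so passed in 3 of 11 alternative fits. miR-12-5p of the same host had 2, 1, 1 and 5 counts and did not pass. bantam promotes growth and blocks death through hid. The passenger bantam-5p had 8, 2, 60 and 32 counts, a log2 fold change of 2.88 ± 0.777 (edgeR adjusted p = 0.0125), while the guide bantam-3p had 561, 445, 803 and 697 and 0.23 ± 0.324, which did not pass. Without stage 1 replicate 1 the value of bantam-5p was 4.01 (adjusted p = 0.0503), without stage 1 replicate 2 it was 1.99 (0.268), and without stage 2 replicate 1 it was 2.04 (0.288). With DESeq2 size factors it was 2.45 and did not pass either (0.0630).

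Arms first seen at stage 2 were those with no count in both stage 1 libraries and at least 1 in both stage 2 libraries. They numbered 14 of the 139 arms with a count (10.1%), and the mirror rule gave 2 arms no longer seen at stage 2 (1.44%). A count of 0 in the 60953 pooled counts of stage 1 allows a share of up to 0.00492%. Of the 14, 7 entered the tested arms, through a filter over all 14 libraries that counts of later stages could satisfy. The edgeR test passed 4, miR-1002-3p, miR-263a-3p, miR-968-5p and miR-14-5p, with 44, 22, 17 and 16 pooled counts at stage 2. That test used the counts by which the 14 were chosen, so it adds no separate support. With stages 1 and 2 fitted alone, miR-263a-3p, miR-968-5p and miR-14-5p did not pass the filter and were not tested. The folds given above for these 4 set the observed counts against the floor, and their lower 95% counting limits were 8.85, 4.24, 3.20 and 2.99. miR-1-3p, the muscle miRNA, followed with 3 and 3 counts. Its lower counting limit against stage 1 was 0.912-fold, and it did not pass (edgeR adjusted p = 0.142). It was seen in all 10 later libraries. miR-9a-3p had 1 and 3 counts, with a lower counting limit of 0.511-fold. The other 8 were at or under the floor, with 3 pooled counts for miR-100-5p, miR-2501-5p, miR-968-3p and miR-988-5p and 2 for miR-1006-3p, miR-263b-5p, miR-316-5p and miR-959-5p. At this depth their absence from stage 1 could not be told from chance in counting. miR-2501-5p was seen in none of the 10 later libraries, and the other 13 arms were seen in 4 to 10 of them.

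Another 20 arms had a count in 1 stage 2 library and none at stage 1, and 10 arms the reverse. The 2 arms no longer seen were miR-6-2-5p, a passenger of the miR-309 cluster with 6 and 13 counts at stage 1, and let-7-5p with 2 and 2. Set against a floor of 3 counts over both stage 2 libraries, miR-6-2-5p was 8.18-fold higher at stage 1. The upper 95% counting limit on its ratio of stage 2 to stage 1 was 0.166. It was too rare to enter the 85 arms, and was called lower where no filter was applied. It had counts again in 6 of the 10 later libraries.

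The falls at this step were of 1 arm from each of the early clusters on chromosome 2R. miR-3-3p comes from the miR-309 cluster, whose 8 hairpins lie within 1059 bp. It had 156, 78, 22 and 31 counts, or 0.437%, 0.309%, 0.0673% and 0.0928%. Both stage 2 libraries lay well under both stage 1 libraries, and the log2 fold change was -2.49 ± 0.527 (edgeR adjusted p = 0.00183). The call was lost narrowly when stage 1 replicate 1 (-2.08, adjusted p = 0.0503) or stage 2 replicate 1 (-2.55 and 0.0528) was left out. miR-311-3p had 1104, 875, 522 and 498 counts and a log2 fold change of -1.31 ± 0.412 (edgeR adjusted p = 0.0293). It did not pass with library size alone (-1.09), without a filter, or without stage 1 replicate 1 (-1.28, adjusted p = 0.118), stage 2 replicate 1 (-1.62, 0.0914) or stage 2 replicate 2 (-1.34, 0.183).

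The other arms of the miR-309 cluster did not pass. All 7 tested arms had negative values, under each of TMM, DESeq2 size factors and library size alone, with a median of -0.68 on the TMM scale. Of the 78 tested arms with a count at either stage, 35, 44 and 29 were negative under these scalings in turn. miR-286-3p had -0.40 ± 0.345 (edgeR adjusted p = 0.474), miR-6-3p -0.68 ± 0.385, miR-5-5p -0.35 ± 0.389 and miR-4-3p -0.91 ± 0.587. The value of miR-3-3p was the lowest of the 7 tested arms, and its difference from the other members was not tested. With stages 1 and 2 fitted alone, 5 of the 7 were lower (against 28.3% of all arms in that fit), among them miR-286-3p (-0.45 ± 0.108, edgeR adjusted p = 0.000222). DESeq2 called 4 of the 7 lower, against 9.41% of all. The cluster as a whole held 69.8%, 67.8%, 61.1% and 60.6% of counts.

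The miR-310 cluster is related to miR-92, and 509 bp hold the hairpins of miR-310, miR-311, miR-312 and miR-313. Its 5 tested arms had a median log2 fold change of -1.08 and were negative under each scaling, where 35, 44 and 29 of the 78 were. In the main test 1 alone fell, against 2.35% of all 85. With stages 1 and 2 fitted alone, 4 of 4 tested were lower, against 28.3% of all arms in that fit. miR-313-3p had 17, 14, 2 and 6 counts (-2.32 ± 0.979) and miR-310-3p 36, 21, 18 and 16 (-1.08 ± 0.660). miR-312-3p, the neighbour of miR-311 at 95 bp, had 1068, 843, 952 and 886 counts and -0.41 ± 0.452. Thus the most abundant members, near equal at stage 1, stood at 1.54% ± 0.0741 (miR-311-3p) and 2.78% ± 0.182 (miR-312-3p) at stage 2. Of the related miR-92 pair, neither miR-92b-3p nor miR-92a-3p (135, 74, 106 and 116 counts, -0.25 ± 0.488) passed. Near-identical arms may have exchanged reads in the authors' counting.

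Other early lists gave no call in the main test, but some did in other fits. The DESeq2 test called 9.41% of all 85 arms lower. With stages 1 and 2 fitted alone, 28.3% of 53 arms were lower and 35.8% higher. That fit called 3 of 3 arms of mir-275 and mir-305 lower and 1 of 4 of the miR-306, miR-79 and miR-9 cluster. Higher in it were 2 of 4 arms of miR-11, miR-998 and miR-995, and 2 of 3 of the miR-2 and miR-13 family. So were 1 of 2 Hox cluster arms (miR-10-5p) and miR-184-3p. The 3 tested arms of the neighbouring mir-275 and mir-305 hairpins had a median of -0.92. miR-275-3p went from 286 and 176 to 148 and 154 counts (-0.96 ± 0.519), which DESeq2 called lower (adjusted p = 0.0191). The 4 tested arms of the miR-306, miR-79 and miR-9 cluster in grp had a median of -0.32 and reached 2 positive values with library size alone. miR-9c-5p had -0.51 ± 0.415, and DESeq2 called it lower (adjusted p = 0.0197). On the rising side, the 4 arms of miR-11, miR-998 and miR-995, hosted by the cell cycle genes E2f1 and Cdk2, had a median of 0.60, led by miR-11-3p (264, 190, 553 and 568 counts, 0.95 ± 0.366, adjusted p = 0.0905). The 5 arms of the miR-2 and miR-13 family, which represses pro-apoptotic genes, had a median of 0.56, with miR-2b-3p at 0.56 ± 0.405. The Hox cluster list (median 0.33, -0.11 with DESeq2 size factors) held miR-10-5p at 0.38 ± 0.289, and miR-184-3p had 0.66 ± 0.309. Neither muscle arm passed, and miR-133-3p had 4, 3, 5 and 2 counts.

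The later libraries showed how each called arm went on. miR-3-3p held 0.108% ± 0.0121 of counts at stage 3, 0.0156% ± 0.00286 at stage 4 and 0.00145% ± 9.57e-05 at stage 7, and in all 10 later libraries it lay below both stage 1 libraries on the TMM scale. Both stage 3 values of miR-3-3p were above both stage 2 values. miR-311-3p held 1.23% ± 0.0520 at stage 3, 0.313% ± 0.0868 at stage 4 and 0.0533% ± 0.0188 at stage 6, and 9 of 10 later libraries lay below both stage 2 libraries.

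Among the rises, miR-263a-5p, miR-1002-5p and miR-283-5p lay above both stage 2 libraries in all 10 later ones. miR-263a-5p went on to 4.08% ± 0.403 at stage 3 and 10.5% ± 2.11 at stage 7. miR-315-5p and miR-31a-5p made their main increase later, with 4.90% ± 1.80 and 2.74% ± 0.825 at stage 4 against 0.151% ± 0.0277 and 0.147% ± 0.0557 at stage 2. miR-124-5p had 0.121% ± 0.00607 at stage 2, 0.0368% ± 0.0402 at stage 3, 0.197% ± 0.0292 at stage 4 and 0.0262% ± 0.00786 at stage 7, and on the TMM scale none of the 10 later libraries exceeded both stage 2 libraries. On that scale miR-263a-3p was lower in all 10 later libraries than in both stage 2 libraries. miR-1002-3p also had its highest stage mean at stage 2 on the TMM scale, with 2 of 10 later libraries above. By mean share it did not, with 0.0666% ± 0.00954 at stage 2 and 0.0868% ± 0.102, 0.113% ± 0.0385 and 0.106% ± 0.0610 at stages 4, 5 and 6. Stage 3 was below stage 2 in mean share for bantam-5p (0.0469% ± 0.0340 against 0.140% ± 0.0620), miR-14-5p and miR-31a-5p as well. So it was, by less, for miR-9a-5p (1.21% ± 0.414 against 1.42% ± 0.111) and miR-276a-3p (0.0997% ± 0.0676 against 0.110% ± 0.0262). These later values are descriptions without a test.

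**Figure D3:**
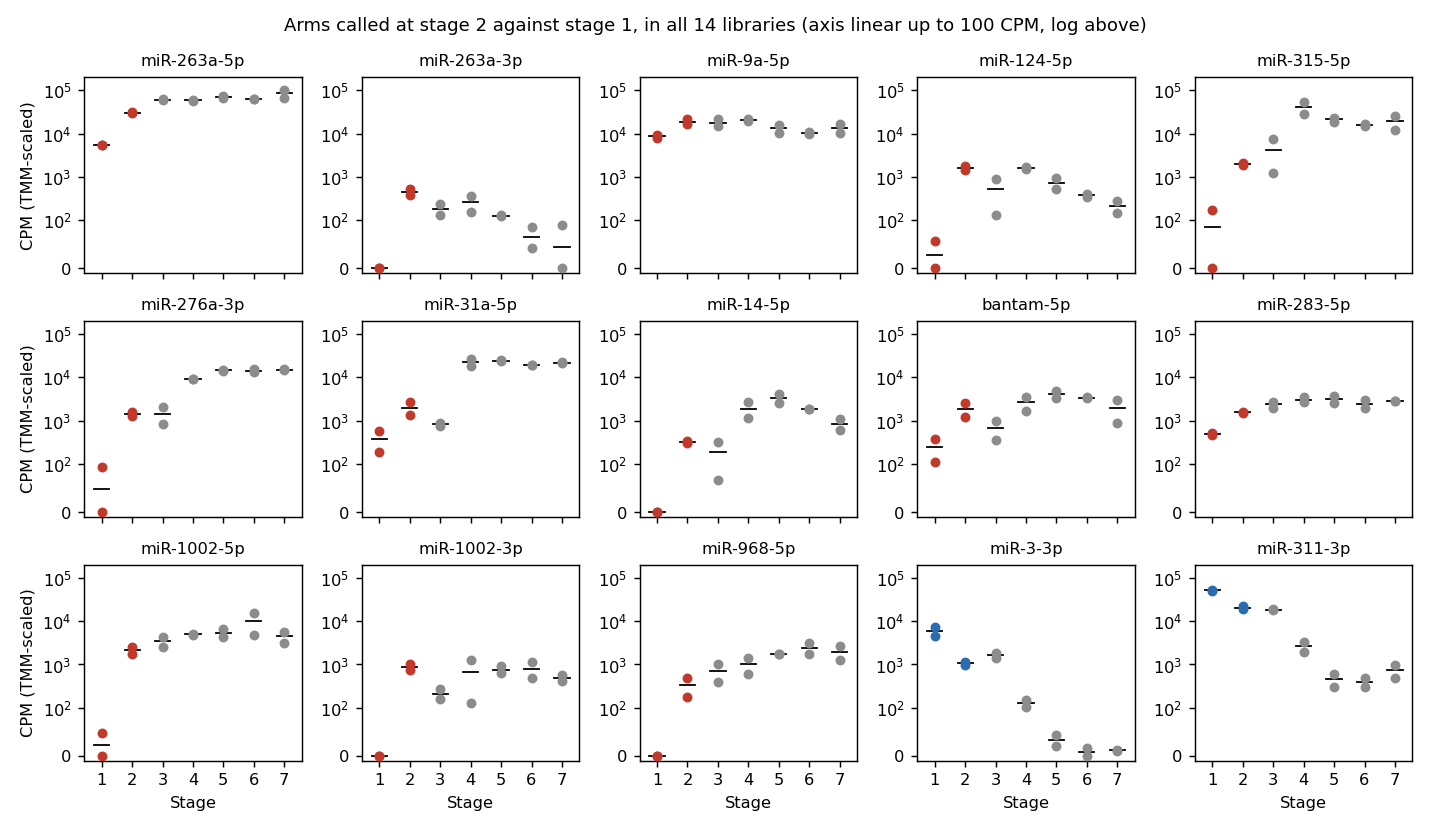
TMM-scaled CPM of the 15 arms called at stage 2 against stage 1, in all 14 libraries by stage (axis linear to 100 CPM, log above); points are libraries, bars are stage means, stages 1 and 2 are coloured red for rises and blue for falls, and later stages are grey. miR-263a-5p climbs on after stage 2, no later library of miR-263a-3p or miR-124-5p exceeds both stage 2 libraries, and miR-3-3p and miR-311-3p end far below stage 1.

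Strand use within a hairpin does not depend on the scaling between libraries. The share of the 5p arm was computed for the 22 hairpins with at least 20 counts of both arms together in each of the 4 libraries. The share of the rarer arm was higher at stage 2 without overlap in 5 (22.7%), lower without overlap in 2 (9.09%) and overlapping in 15. Several of these 15 had no count of the rarer arm in any of the 4 libraries. Such hairpins could only tie, so their overlap is no sign of stable strand use. mir-14 differed most. Its 5p arm had 0 of 87 and 0 of 56 counts at stage 1, with exact 95% upper limits of 4.15% and 6.38%, and 15.7% (7.02 to 28.6) and 10.3% (4.53 to 19.2) at stage 2. The interval of stage 2 replicate 2 began above the limit of stage 1 replicate 1 and below that of stage 1 replicate 2. The 5p share of bantam was 1.41% (0.609 to 2.75), 0.447% (0.0542 to 1.61), 6.95% (5.35 to 8.86) and 4.39% (3.02 to 6.14), so that the intervals of the stages did not overlap.

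For mir-9b the 5p share was 69.1%, 65.2%, 61.4% and 63.8%, with intervals that overlapped throughout. The shares of mir-305 (27.8%, 21.3%, 20.3% and 23.1%) and mir-11 (23.9%, 26.4%, 24.1% and 20.4%) overlapped between the stages. mir-8, drawn beside them, had 6.85%, 0%, 7.19% and 4.98%. mir-8, mir-263a and mir-9a were chosen after their values were seen. The hairpins mir-263a and mir-9a had no 3p count at stage 1 and 5p shares of 98.3% and 98.8% (mir-263a) and 99.8% and 99.3% (mir-9a) at stage 2. Their stage 1 intervals reached down to 96.2% and 97.8%, so that a change was not detectable at this depth.

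**Figure D4:**
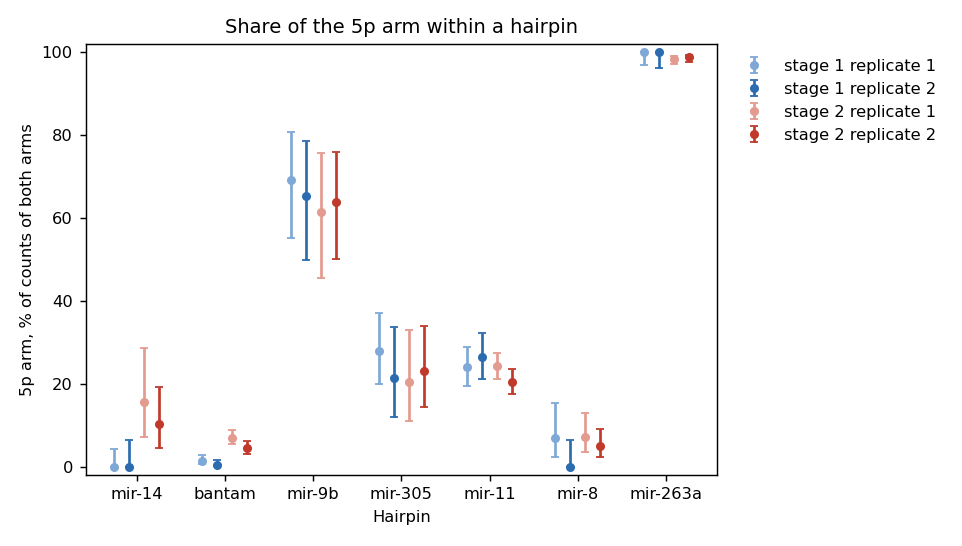
Share of the 5p arm among the counts of both arms (%) for the 7 hairpins with the largest differences between stage means, in each of the 4 libraries, with exact 95% binomial intervals. Among the 7, bantam alone has stage 2 intervals that both lie above both stage 1 intervals (at least 3.02% against at most 2.75%).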

How the data were processed

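The authors deposited raw read counts per mature miRNA arm for 14 libraries, and these are whole numbers. Per the labels' protocols, TRIzol-extracted RNA (1 ng) was made into libraries with an altered TruSeq small RNA kit and 15 PCR cycles. Per the submitters' processing notes, Bowtie, HTSeq and the build dm6 were used. The handling of multiply matching reads is not given in the sources used here. Columns were matched to libraries by title.

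The counts were fitted with edgeR 4.0.16 (R 4.3.3): filterByExpr by stage (85 arms, 99.7% to 99.8% of the counts of the 4 libraries), TMM factors (0.595 to 0.806 in the 4 libraries), 1 coefficient per stage, 7 residual degrees of freedom, and a Benjamini-Hochberg adjusted p of 0.05. Standard errors were derived from the fold change and F. Arms with 0 stage 1 counts were set against a floor of 3 counts over the stage, and those with 1 to 3 counts were given as TMM-scaled ratios of pooled counts with exact 95% binomial intervals. Intervals and floors cover counting error only, not variation between libraries, and reads carry no molecular identifiers. Alternatives were DESeq2 1.42.0, other scalings and filters, the 2 stages alone, and each library left out, where the lone library of that stage was taken to vary as much as those of other stages. The code was tested on simulated counts.

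Named arms were all called arms, the 10 most abundant per stage, up to 10 first seen and 5 no longer seen, up to 5 per direction with the largest change without overlap, the 4 most abundant of each list and the 5 hairpins with the largest change of 5p share. Named outside it, after their values were seen, were miR-276b-3p, miR-996-5p, miR-1006-3p, miR-263b-5p, miR-316-5p and miR-959-5p. The members and lists were chosen with earlier results of these data known. Hairpin positions came from Ensembl's dm6 annotation, and the 104 hairpin names of arms seen at either stage all matched, with bantam, miR-263a and let-7 under other names. Sums by seed, for which sequences are needed, were not made. Figures used matplotlib 3.10.9.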

Additional observations from a re-analysis of the deposited data

How the results depend on the processing

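The main test called 13 arms higher, 2 lower and 15 in all. Testing only arms with a mean count of 50 or more gave 8 higher, 1 lower and 9 in all of 39 tested, library size alone 1 lower, the DESeq2 test 8 lower, and the 2 stages alone 15 lower and 34 in all. Leaving out 1 library gave 4 to 10 higher, 0 to 2 lower and 4 to 11 in all. Where this count of falls was 0, without stage 1 replicate 1 or stage 2 replicate 1, 19 and 15 arms had an unadjusted edgeR p under 0.05 in either direction. With 1 library left out, 96 to 100 arms were tested, so the adjustment ran over more arms than the 85 of the main fit. Library size alone and the DESeq2 test used the same 14 libraries and number of arms (85). Fewer arms entered with a mean count of 50 or more and with the 2 stages alone (53). The cause of these shifts was not tested. The main calls kept their sign in all 11 alternatives that tested them, but not every fit tested all 15. With the 2 stages alone, 12 of the 15 were tested and all 12 passed. The rises of miR-263a-3p, miR-14-5p and miR-968-5p did not enter that fit. With a mean count of 50 or more, 11 of the 15 were tested and 9 passed. Against TMM, the median log2 fold change shifted by -0.42 with DESeq2 size factors and by 0.23 with library size alone, so the share of rises among calls was 86.7%, 75.0% and 94.4%, and 57.9% in the DESeq2 test and 55.9% with the 2 stages alone. Arms first seen at stage 2 numbered 14, or 34 with a count in either library, 5 with at least 3 counts in both, and 19 to 24 without 1 library. Arms no longer seen numbered 2, or 12, 1 and 4 to 10. Without miR-286-3p the effective number of arms was 15.6 at stage 1 and 17.8 at stage 2, and the top 5 arms held 61.7% and 56.0%. With miR-286-3p kept, single libraries gave 4.94 to 5.24 and 6.62 to 6.81 arms, and 84.3% to 84.5% and 78.9% to 79.5%. No paired analysis was possible because the labels carry no replicate numbers. At these depths 1 count equals 37.3 to 57.2 scaled CPM, which limits every arm with few counts.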
